A study of Mus musculus with 6 samples.

Results

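Per1, Per2, Per3, Cry2, Arntl, Nr1d1, Nr1d2, Dbp, Hlf and Tef are core genes of the circadian clock and 3 of its output factors, and their expression was compared between muscle labelled as an Hnrnpu knockout and wild-type muscle. The genes were chosen by symbol, each symbol matched 1 Ensembl gene among the 49315 in the count tables, and all 10 had enough reads to be tested. RNA was sequenced from whole gastrocnemius, the large calf muscle, of 3-month-old mice on a strain given as mixed C57BL/6 129. The first group, mKO, holds 3 libraries with the genotype Hnrnpu muscle specifc knockout (spelling of the labels), and the second holds 3 WT libraries. Hnrnpu encodes a nuclear RNA- and chromatin-binding protein, and the question of the series is how it controls gene expression and splicing in muscle. The promoter driving the recombinase, the exons removed, the time of day and the lighting at harvest are not stated in the labels available. A difference in harvest time between the groups, if there was one, and the genotype cannot be told apart.

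The clock is a feedback loop that runs in nearly every cell, including muscle fibres. ARNTL (also called BMAL1) pairs with CLOCK or NPAS2, binds E-box elements in DNA and switches on the Per and Cry genes. PER and CRY proteins then return to the nucleus and repress ARNTL and CLOCK. In a second loop NR1D1 and NR1D2 (REV-ERBα and REV-ERBβ) repress Arntl, while ROR proteins activate it through the same elements. Output is carried in part by DBP, HLF and TEF, transcription factors of the PAR bZIP family, which bind D-box elements and are opposed by NFIL3. In muscle the clock is known to time metabolic and structural genes. Because the transcripts cycle, a single collection of tissue gives their level at 1 unknown phase.

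The 6 libraries held between 32108684 and 42344238 counts. Replicates are numbered with no animal named, and a p-value therefore reflects variation among these 6 libraries, which may be technical. Values are counts-per-million (CPM) scaled with the TMM method, which sets the bulk of genes equal between libraries, and fold changes are mKO over WT from edgeR's quasi-likelihood test, with p-values adjusted over all 16650 genes tested. Scaling by library totals in place of TMM raised the median over all genes by 0.465 on the log2 scale. Hnrnpu itself, counted over the whole gene, had 209, 210.0 and 205 CPM in mKO replicates 1 to 3, against 233, 235 and 247 CPM in WT replicates 1 to 3 (log2 fold change -0.20, SE 0.10, edgeR adjusted p = 0.147). All mKO libraries were below all WT libraries, but the test was not passed. With library totals this turned to a log2 fold change of 0.27, called higher in mKO (edgeR adjusted p = 0.0402). Since a conditional allele can remove some exons and leave the others transcribed, this count is no check of the labels.

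Markers of several cell types moved between the groups, where 37.0% of all genes tested were called (18.2% higher and 18.9% lower) with TMM factors and 55.8% (49.0% higher and 6.75% lower) with library totals. Of 8 skeletal muscle fibre markers none was at 0, and 6 were lower in mKO, with a summed level of 166950 to 198519 CPM in mKO libraries and 266027 to 291448 CPM in WT libraries (5 lower with library totals). Most of that sum was Ttn, with 143911 ± 16609 CPM in mKO and 172820 ± 617 CPM in WT muscle (SD, n = 3 each). Neither Ttn (log2 -0.26) nor Myh1 was called (edgeR adjusted p = 0.126 and 0.0592). All 8 macrophage markers were higher, summing to 539 to 902 CPM in mKO and 259 to 312 CPM in WT libraries, and all 8 were also called higher with library totals. All 7 endothelial markers were lower, summing to 166 to 186 CPM in mKO and 269 to 351 CPM in WT libraries, but 2 of the 7 were called lower with library totals. Of 7 fibro-adipogenic progenitor markers 2 were higher, while 6 were called higher with library totals. The sums over all 7 were 2134 to 2413 CPM in mKO and 1704 to 1859 CPM in WT libraries. The higher sums came mainly from Col3a1, with 1022 ± 142 CPM in mKO and 487 ± 41.5 CPM in WT muscle (SD, n = 3 each). Pdgfra had 112 ± 13.2 CPM in mKO and 108 ± 5.99 CPM in WT muscle (SD, n = 3 each). Dcn had 759 ± 19.2 CPM in mKO and 887 ± 119 CPM in WT muscle (SD, n = 3 each). Neither was called with TMM factors. Of 5 satellite cell markers 2 were higher and 1 lower (sums of 26.5 to 28.7 CPM in mKO and 22.0 to 25.4 CPM in WT libraries), and of 6 smooth muscle markers 2 were higher and 2 lower (sums of 1764 to 1971 CPM in mKO and 1672 to 1934 CPM in WT libraries). Des and Rgs5 made up most of the sums over the smooth muscle list and went opposite ways. Those sums are therefore no measure of smooth muscle. Des had 1547 ± 92.9 CPM in mKO and 1154 ± 132 CPM in WT muscle (SD, n = 3 each). Rgs5 had 258 ± 16.8 CPM in mKO and 581 ± 28.4 CPM in WT muscle (SD, n = 3 each). Of the other markers called, Acta2 rose and Myh11 fell (log2 0.57 and -0.59). With library totals 2 satellite cell markers were called higher and 0 lower, and 2 smooth muscle markers higher and 1 lower. None of 5 adipocyte and 6 Schwann cell markers was called, with sums of 12.6 to 29.5 and 32.3 to 75.6 CPM in mKO, against 14.2 to 34.4 and 45 to 51.7 CPM in WT libraries; with library totals 1 Schwann cell marker was called higher. Clock genes are expressed in all these cells, and the part of the cell mix in the values below was not tested. In whole muscle, fewer cells of a type and less RNA per cell cannot be told apart.

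The genes span the following positions in the count tables (GRCm38). Per1 lies at chr11:69095217-69109960 on the plus strand, and Per2 lies at chr1:91415982-91459324 on the minus strand. Per3 lies at chr4:151003652-151044665 on the minus strand, and Cry2 lies at chr2:92403646-92434043 on the minus strand. Arntl lies at chr7:113207465-113314126 on the plus strand, and Nr1d1 lies at chr11:98767932-98775333 on the minus strand. Nr1d2 lies at chr14:18204054-18239127 on the minus strand, and Dbp lies at chr7:45705088-45710203 on the plus strand. Hlf lies at chr11:90336536-90390895 on the minus strand, and Tef lies at chr15:81802421-81826861 on the plus strand.

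Promoter sequences show which clock elements stand next to the start sites of genes described below. The RefSeq promoter table for GRCm38.p6 held 9 of the 10 genes, all but Per2, which was not searched. The 250 bases before each listed start were searched on both strands for 6 elements. The E-box was searched as CACGTG and its variant as CACGTT. The D-box was searched as TTATGTAA and, in its other form, as TTACGTAA. The core of the ROR element was searched as TAGGTCA and the cAMP element as TGACGTCA. No letters of 1 element are contained in another, though an E-box variant can share bases with a D-box. Shown here, with matches in capitals, are the windows of Per1 and Cry2, which rose, of Hlf, which fell, and of Per3, which varied most between mKO libraries.
Per1, chr11:69098699-69098948, plus strand: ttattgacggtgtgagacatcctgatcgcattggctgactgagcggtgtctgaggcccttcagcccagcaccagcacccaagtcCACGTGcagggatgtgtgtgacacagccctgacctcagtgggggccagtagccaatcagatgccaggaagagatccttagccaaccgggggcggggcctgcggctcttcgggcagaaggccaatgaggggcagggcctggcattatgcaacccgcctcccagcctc
Cry2, chr2:92434070-92434319, minus strand: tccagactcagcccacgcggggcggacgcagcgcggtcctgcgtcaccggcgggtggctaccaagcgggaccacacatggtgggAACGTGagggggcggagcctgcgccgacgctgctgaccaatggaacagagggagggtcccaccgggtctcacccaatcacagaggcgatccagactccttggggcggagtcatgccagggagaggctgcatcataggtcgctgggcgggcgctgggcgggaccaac
Hlf, chr11:90390918-90391167, minus strand: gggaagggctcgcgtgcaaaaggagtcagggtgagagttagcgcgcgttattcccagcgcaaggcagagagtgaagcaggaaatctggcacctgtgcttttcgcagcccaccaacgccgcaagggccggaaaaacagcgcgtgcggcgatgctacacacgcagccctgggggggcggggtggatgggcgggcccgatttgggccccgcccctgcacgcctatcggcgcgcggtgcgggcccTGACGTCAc
Per3, chr4:151044666-151044915, minus strand: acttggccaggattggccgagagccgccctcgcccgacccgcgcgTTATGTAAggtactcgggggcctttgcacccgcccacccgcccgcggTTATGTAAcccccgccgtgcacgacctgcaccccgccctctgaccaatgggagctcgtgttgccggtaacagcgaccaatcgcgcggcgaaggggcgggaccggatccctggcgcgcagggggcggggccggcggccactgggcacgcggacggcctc

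Per1 carried an E-box 166 bases before its first listed start, in a window inside the Per1 gene as counted, with 1 base in an exon. Cry2 carried the E-box variant, also 166 bases before its start. The same variant began 28 bases before the start of Nr1d1, and both windows of Tef held an E-box. All 250 bases of the first Tef window lie in exons counted for Tef or Gm17597. Hlf had a cAMP element that began 9 bases before its start, and Per3 had 2 D-boxes that began 205 and 158 bases before its start. No element was found in the windows of Arntl, Nr1d2, Dbp or the second start of Per1. Only exact letters were matched, and the 50 bases after each start lay outside its window. Elements there, or with other letters, would be missed. Exons of the same gene covered 159 bases of the Dbp window, 46 of the second Arntl window and 21 of the Nr1d2 window. Among all 32851 windows of this length in the table, 6.02% held the E-box, 3.85% its variant, 0.819% the D-box, 0.113% its other form, 2.23% the ROR core and 1.55% the cAMP element. Of the 12 windows of the clock genes, 3 held the E-box, 2 its variant, 1 the D-box and 1 the cAMP element. The shorter cAMP form TGACG, held by 17.8% of all windows, was not counted here. These windows come from 9 genes and are not independent: 2 of the 3 E-box windows belong to Tef, and the 2 Arntl windows overlap. These matches describe the letters in a short window and are not sites of measured binding.

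The repressor genes Per1, Per2 and Cry2 were about 2-fold higher in mKO muscle, and the output gene Hlf was about 2-fold lower. Per3, Arntl, Nr1d1, Nr1d2, Dbp and Tef did not pass the test. Thus 4 of the 10 genes were called (40.0%), against 37.0% of all genes tested, a share near the background. Higher calls made up 3 of 10 against 18.2% of all genes, and lower calls 1 of 10 against 18.9%. The median log2 fold change of the 10 genes was 0.06, against 0.02 for all genes. The same 4 genes had no overlap between groups, where 49.3% of all genes tested had none (25.3% with mKO above WT).

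**Figure D1:**
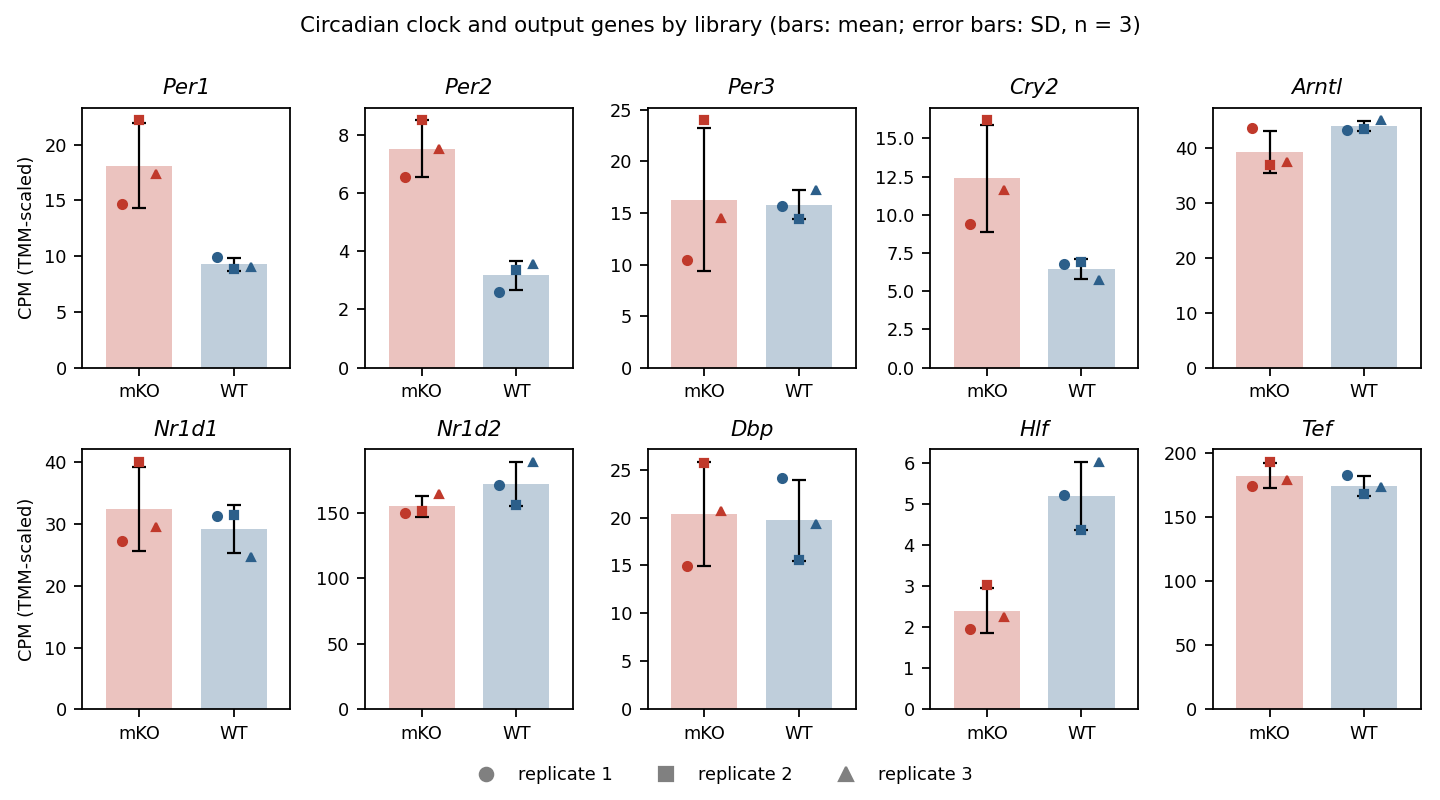
Level of each clock gene in CPM (TMM-scaled), mKO left of WT; points are libraries with a symbol for each replicate number, bars the mean and error bars the SD of 3 libraries. Per1, Per2 and Cry2 are higher in every mKO library than in any WT library, Hlf is lower in every mKO library, and the groups overlap for the other 6 genes.

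Per2 had the largest rise. It encodes a PERIOD protein, the limiting partner in the repressor complex. It had 6.57, 8.51 and 7.50 CPM in mKO replicates 1 to 3, against 2.61, 3.37 and 3.55 CPM in WT replicates 1 to 3. The lowest mKO library was well above the highest WT library. Behind these values were 278 to 379 counts in mKO and 78 to 127 counts in WT libraries. The mean was 7.53 ± 0.972 CPM in mKO and 3.18 ± 0.503 CPM in WT muscle (SD, n = 3 each), a 2.36-fold difference with a 95% interval of 1.79 to 3.12 (log2 1.24, SE 0.19, edgeR adjusted p = 0.00024).

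Per1, the PERIOD gene that also responds acutely to hormones and cAMP, had 14.7, 22.2 and 17.4 CPM in mKO replicates 1 to 3, against 9.92, 8.86 and 9.01 CPM in WT replicates 1 to 3. The groups did not overlap, and the mKO libraries were spread more widely than the WT libraries. The mean was 18.1 ± 3.81 CPM in mKO and 9.26 ± 0.575 CPM in WT muscle (SD, n = 3 each). The fold change was 1.95, with an interval of 1.54 to 2.48 (log2 0.97, SE 0.16, edgeR adjusted p = 0.000461).

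Cry2 encodes a cryptochrome, which joins PER proteins in the repressor complex. It had 9.39, 16.2 and 11.6 CPM in mKO replicates 1 to 3, against 6.78, 6.90 and 5.71 CPM in WT replicates 1 to 3. Every mKO library was above every WT library, with mKO replicate 1 nearest to them. The mean was 12.4 ± 3.49 CPM in mKO and 6.46 ± 0.657 CPM in WT muscle (SD, n = 3 each), a 1.92-fold difference with an interval of 1.44 to 2.57 (log2 0.94, SE 0.19, edgeR adjusted p = 0.00216). An antisense gene, D930015M05Rik, shares 295 bases (4.7%) of the Cry2 exons and had 0 counts in 5 libraries and 4 in the other. Its paralog Cry1 had 9.91 ± 0.517 CPM in mKO and 10.8 ± 0.714 CPM in WT muscle (SD, n = 3 each; log2 -0.12, edgeR adjusted p = 0.518; with library totals 0.35 and 0.0425). Per length, Cry2 stood at 0.659 ± 0.166 of the level of Cry1 in mKO and at 0.317 ± 0.0142 in WT libraries (SD, n = 3 each).

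Per3, a PERIOD gene that is dispensable for the core rhythm in mice, did not pass the test. It had 10.4, 24 and 14.5 CPM in mKO replicates 1 to 3, against 15.7, 14.4 and 17.2 CPM in WT replicates 1 to 3. The mKO libraries lay on both sides of the WT libraries. The log2 fold change was 0.05 with an interval from -0.46 to 0.55 (edgeR adjusted p = 0.89). It was -0.33 without mKO replicate 2 (edgeR adjusted p = 0.163). Per length, Per1 stood at 2.41, 1.58 and 2.04 times Per3 in mKO replicates 1 to 3, and at 1.08, 1.05 and 0.895 times Per3 in WT replicates 1 to 3.

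Arntl, the activator, was close to level between the groups. It had 43.7, 37.0 and 37.4 CPM in mKO replicates 1 to 3, against 43.3, 43.5 and 45.1 CPM in WT replicates 1 to 3. Of the mKO libraries 2 were below all WT libraries and 1 was among them. The log2 fold change was -0.16 with an interval from -0.39 to 0.07 (SE 0.11, edgeR adjusted p = 0.267). With library totals it was 0.31 (edgeR adjusted p = 0.0343), below the median shift of all genes. The ratio of Per2 to Arntl per length was 0.249 ± 0.052 in mKO and 0.0927 ± 0.0134 in WT libraries (SD, n = 3 each).

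The REV-ERB genes did not pass the test either. Nr1d1, which represses Arntl, had 27.3, 40.1 and 29.6 CPM in mKO replicates 1 to 3, against 31.3, 31.5 and 24.7 CPM in WT replicates 1 to 3. The groups overlapped, and mKO replicate 2 was above all others. The log2 fold change was 0.15 with an interval from -0.18 to 0.48 (edgeR adjusted p = 0.475). The thyroid hormone receptor gene Thra runs towards Nr1d1 on the opposite strand and shares 263 bases (8.5%) of its exons. Thra was lower, at 20.4 ± 1.63 CPM in mKO and 30.9 ± 1.87 CPM in WT muscle (SD, n = 3 each; log2 -0.60, edgeR adjusted p = 0.00118, but -0.14 and 0.319 with library totals). Strand settings of the counting are not known, so reads in the shared stretch could not be assigned by strand.

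Nr1d2, its paralog with the same role, had 150.0, 151 and 164 CPM in mKO replicates 1 to 3, against 171, 156 and 189 CPM in WT replicates 1 to 3. The groups overlapped. The log2 fold change was -0.15 with an interval from -0.39 to 0.09 (edgeR adjusted p = 0.316), and 0.31 with library totals (edgeR adjusted p = 0.0293).

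Among the PAR bZIP outputs, Hlf fell. It had 1.94, 3.01 and 2.24 CPM in mKO replicates 1 to 3, against 5.21, 4.35 and 6.01 CPM in WT replicates 1 to 3. All mKO libraries were below all WT libraries. The gene was low throughout, with 83 to 134 counts in mKO and 142 to 215 counts in WT libraries. The mean was 2.40 ± 0.551 CPM in mKO and 5.19 ± 0.831 CPM in WT muscle (SD, n = 3 each), 2.17-fold lower (log2 -1.11, SE 0.22, interval from -1.59 to -0.64, edgeR adjusted p = 0.00168). With library totals the log2 fold change was -0.65 (edgeR adjusted p = 0.0237), and Hlf was the 1 clock gene still lower on that scale.

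Dbp, usually the most strongly cycling of the 3 outputs, had 14.9, 25.7 and 20.7 CPM in mKO replicates 1 to 3, against 24.1, 15.6 and 19.3 CPM in WT replicates 1 to 3. Both groups covered nearly the same range. The log2 fold change was 0.05 with an interval from -0.37 to 0.48 (edgeR adjusted p = 0.854). Sphk2, a sphingosine kinase gene on the opposite strand, shares 539 bases (18%) of the Dbp exons, the largest overlap among the 10 genes. Sphk2 had 5.45 ± 0.942 CPM in mKO and 4.30 ± 0.44 CPM in WT muscle (SD, n = 3 each; log2 0.34, edgeR adjusted p = 0.169).

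Tef had 174, 193 and 179 CPM in mKO replicates 1 to 3, against 183, 168 and 173 CPM in WT replicates 1 to 3. The groups overlapped and differed little. The log2 fold change was 0.06 with an interval from -0.16 to 0.29 (edgeR adjusted p = 0.679). Of the summed level of the 3 outputs per length, Tef made up a mean of 76.6% in mKO and 75.3% in WT libraries, Dbp 22.2% in mKO and 22.1% in WT libraries, and Hlf 1.17% in mKO and 2.63% in WT libraries. The ratio of Hlf to Tef was 0.0131 to 0.0183 in mKO and 0.0305 to 0.0410 in WT libraries. The predicted antisense gene Gm17597 shares 193 bases (2.5%) of the Tef exons and rose at a low level, with 34 to 70 counts in mKO and 7 to 18 counts in WT libraries (log2 1.71, edgeR adjusted p = 0.0112). That call was lost without mKO replicate 2 or WT replicate 3 (edgeR adjusted p = 0.0555 and 0.0504). Arntl shares 33 exon bases with the predicted gene Gm45355, which had no counts.

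**Figure D2:**
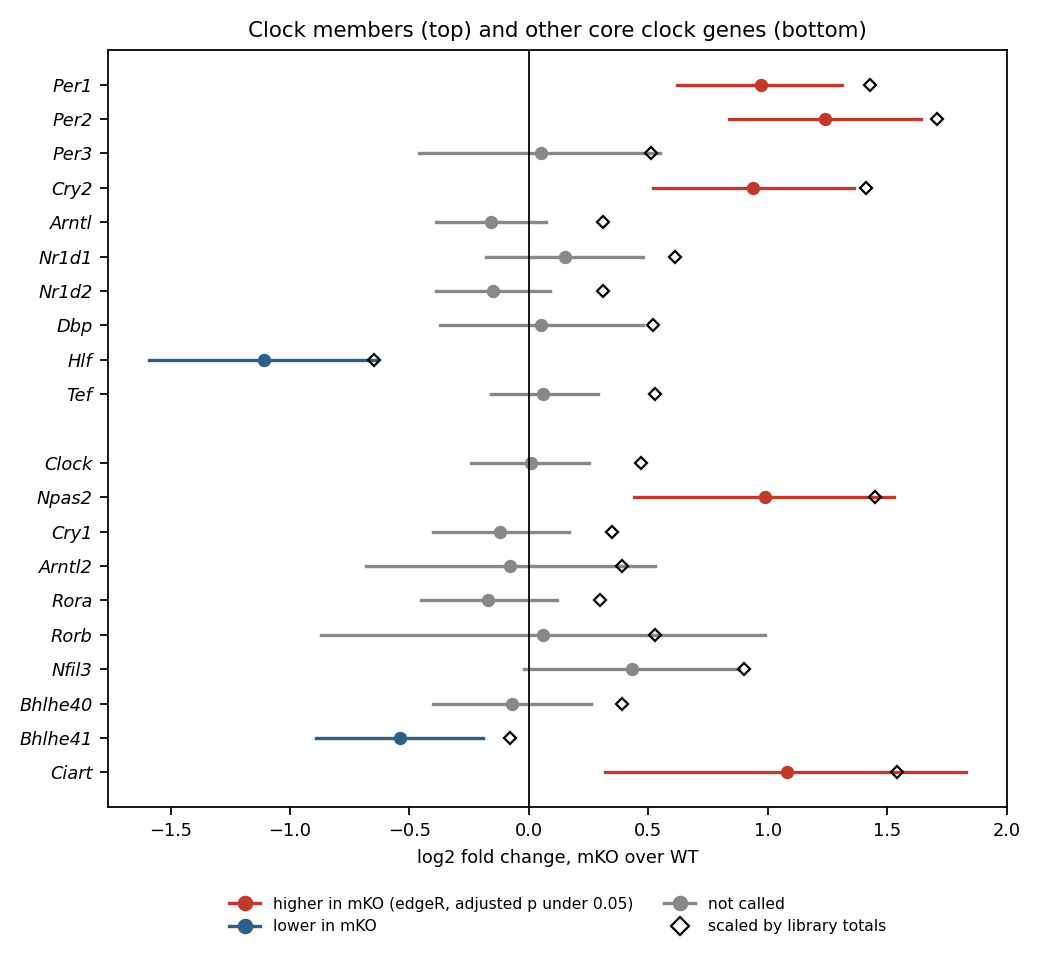
Log2 fold change, mKO over WT, of the 10 clock genes and of 10 of the 11 other core clock genes listed (1 is not reported here). Filled points and lines are edgeR values with TMM scaling and their 95% intervals, and open diamonds are values scaled by library totals, which lie to the right by about the median shift of 0.465; on both scales Per1, Per2 and Cry2 are above 0 and Hlf is below 0.

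The calls for Per1, Per2, Cry2 and Hlf held in all 15 other fits that were run, which used other scalings, filters and tests or left out 1 library. Their log2 fold changes ranged from 0.80 to 1.43 for Per1, 1.11 to 1.71 for Per2, 0.71 to 1.41 for Cry2 and -1.31 to -0.65 for Hlf. With library totals 9 of the 10 genes were called, 8 higher and 1 lower, where 55.8% of all genes were called, 49.0% higher and 6.75% lower.

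Levels per kilobase of exon differed widely between the 10 genes. In mKO muscle the order of mean levels was Nr1d2 (31.0 CPM per kb), Tef (23.2), Nr1d1 (10.5), Dbp (6.83), Arntl (5.23), Per1 (3.21), Cry2 (1.96), Per3 (1.70), Per2 (1.29) and Hlf (0.359). In WT muscle it was Nr1d2 (34.4 CPM per kb), Tef (22.2), Nr1d1 (9.48), Dbp (6.58), Arntl (5.85), Per1 and Per3 (both 1.64), Cry2 (1.02), Hlf (0.777) and Per2 (0.542). The first 5 genes kept their places in both groups, while Per2 and Hlf changed places at the low end. Cry2 and Per3 changed places as well. Neighbours whose libraries overlapped in mKO were Dbp and Arntl, Cry2 and Per3, and Per3 and Per2. In WT these were Nr1d1 and Dbp, Dbp and Arntl, and Per1 and Per3. Exon length here is the sum of all listed exons, not that of the transcript used in muscle. It includes bases shared with genes on the opposite strand, 18% for Dbp and 8.5% for Nr1d1, where counts are uncertain. Levels per length of these genes, and shares and ratios made from them, are uncertain to that extent.

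**Figure D3:**
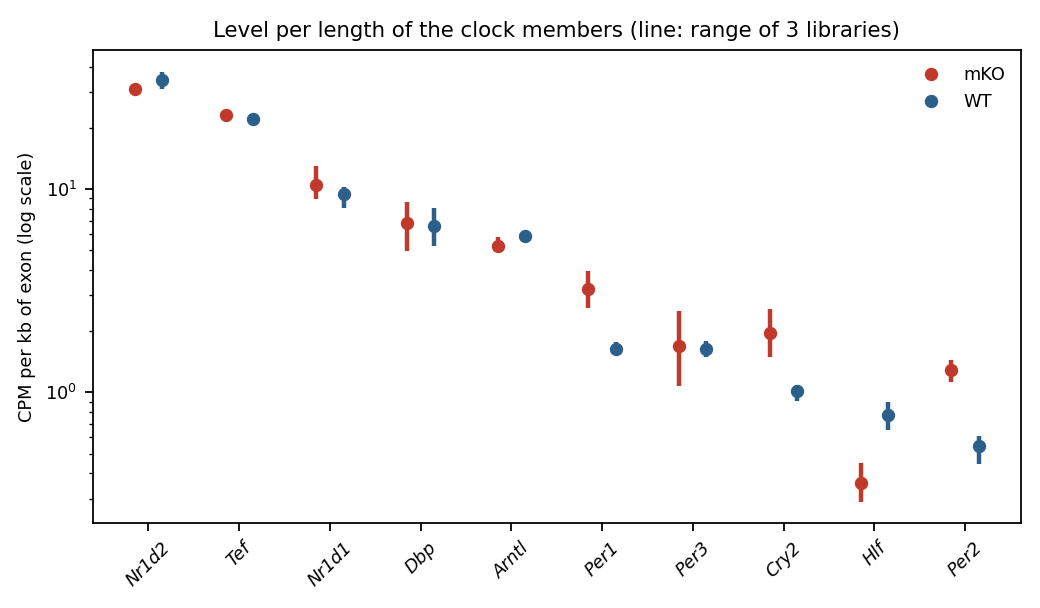
Level of the clock genes in CPM per kb of exon on a log scale, ordered by the WT mean; points are means and lines the range of 3 libraries, mKO left of WT. Per2 lies below Hlf in WT (0.542 against 0.777) and above it in mKO (1.29 against 0.359).

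The mKO libraries differed among themselves in a way that many of the clock genes shared. Replicate 2 had the highest level of 8 of the 10 genes, and replicate 1 the lowest level of 9. Among all tested genes, replicate 2 was highest for 35.2% and replicate 1 lowest for 34.5%. Arntl ran the other way, with its highest mKO level in replicate 1, but its replicates 2 and 3 were nearly equal (37.0 and 37.4 CPM). For Nr1d2 replicates 1 and 2 were nearly equal (150.0 and 151 CPM). The highest mKO library exceeded the lowest 2.31-fold for Per3, 1.73-fold for Cry2 and Dbp, 1.55-fold for Hlf, 1.51-fold for Per1 and 1.47-fold for Nr1d1. The spread was 1.18-fold or less for Arntl, Tef and Nr1d2.

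The WT libraries showed a different arrangement. Replicate 2 was lowest for 6 of the 10 genes (35.8% of all tested genes) and replicate 3 highest for 5 (33.1% of all tested genes). Dbp had the widest WT spread at 1.54-fold, followed by Hlf at 1.38-fold and Per2 at 1.36-fold, and Arntl the narrowest at 1.04-fold. Without mKO replicate 2 the log2 fold change was 0.80 for Per1, 1.15 for Per2, 0.71 for Cry2 and -1.31 for Hlf, and all 4 stayed called (edgeR adjusted p from 0.0013 to 0.00982).

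**Figure D4:**
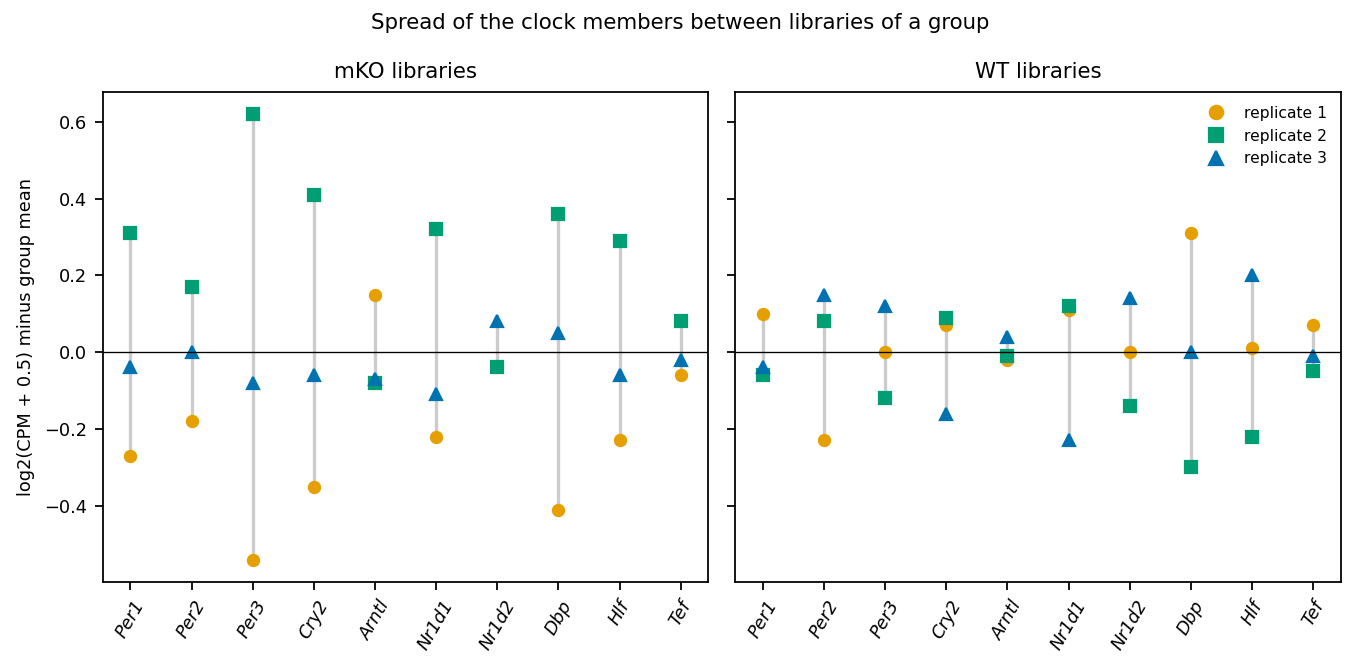
Deviation of each library from the mean of its group, in log2(CPM + 0.5), for the 10 clock genes; the left panel holds mKO and the right panel WT libraries, with a symbol for each replicate number. In mKO, replicate 2 is highest for 8 genes and replicate 1 lowest for 9, with Arntl the other way round.

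Of 11 other listed core clock genes, all tested, 2 rose and 2 fell (36.4% called, near the background of 37.0%), with a median log2 fold change of -0.07. With library totals 6 were called higher and 0 lower (54.5% called, against 55.8% of all genes), with a median of 0.39. Npas2, which can replace CLOCK as the partner of ARNTL, had 3.68, 2.69 and 3.29 CPM in mKO replicates 1 to 3, against 2.14, 1.53 and 1.23 CPM in WT replicates 1 to 3. The groups did not overlap (log2 0.99, SE 0.25, edgeR adjusted p = 0.00859). Clock itself had 114 ± 3.36 CPM in mKO and 113 ± 11.7 CPM in WT muscle (SD, n = 3 each; log2 0.01, interval from -0.24 to 0.25, edgeR adjusted p = 0.973; with library totals 0.47 and 0.00397).

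Ciart, which encodes the repressor CHRONO, rose at a low level, with 2.08 ± 0.739 CPM in mKO and 0.983 ± 0.366 CPM in WT muscle (SD, n = 3 each; log2 1.08, edgeR adjusted p = 0.0284). The repressor gene Bhlhe41 fell, with 21 ± 4.84 CPM in mKO and 30.6 ± 4.24 CPM in WT muscle (SD, n = 3 each; log2 -0.54, edgeR adjusted p = 0.0194). Both calls were weak. That of Ciart ended with the replicate number as a block (adjusted p = 0.0531) and without WT replicate 1, WT replicate 2, mKO replicate 2 or mKO replicate 3 (edgeR adjusted p from 0.0537 to 0.137). Bhlhe41 lost its call without WT replicate 1, mKO replicate 1 or mKO replicate 3 (edgeR adjusted p = 0.0743, 0.0801 and 0.0621), and with library totals (log2 -0.08, edgeR adjusted p = 0.687). Nfil3, the opponent of the PAR bZIP factors, had 40.8, 19.1 and 32.0 CPM in mKO replicates 1 to 3 and 23.7, 23 and 21.6 CPM in WT replicates 1 to 3 (log2 0.43, edgeR adjusted p = 0.123, but 0.69 and 0.00275 without mKO replicate 2).

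Of 17 listed genes whose products modify clock proteins after translation 16 were tested, and 3 rose and 5 fell (50% called, against 37.0% of all genes). With library totals 8 were called higher and 1 lower (56.2% called, against 55.8% of all genes). Btrc, a ligase subunit acting on PER proteins, had 13.7 ± 1.11 CPM in mKO and 18.8 ± 0.629 CPM in WT muscle (SD, n = 3 each; log2 -0.46, edgeR adjusted p = 0.00923, but 0.00 and 0.978 with library totals).

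The catalytic subunits of AMP-activated kinase, which phosphorylates cryptochromes, went opposite ways. Prkaa1 had 29.6, 30.0 and 33.8 CPM in mKO replicates 1 to 3, against 19.6, 18.9 and 19.1 CPM in WT replicates 1 to 3 (log2 0.70, SE 0.11, edgeR adjusted p = 0.000334). Prkaa2, the main muscle form, had 193, 222 and 229 CPM in mKO replicates 1 to 3, against 402, 395 and 406 CPM in WT replicates 1 to 3 (log2 -0.90, SE 0.11, edgeR adjusted p = 4.99e-05). Neither pair of groups overlapped. Per length, Prkaa1 stood at 0.249 ± 0.0162 of Prkaa2 in mKO and at 0.082 ± 0.00146 in WT libraries (SD, n = 3 each). Usp2, a deubiquitinase that is itself rhythmic, rose to 37.7 ± 3.40 CPM in mKO, against 26.5 ± 4.27 CPM in WT muscle (SD, n = 3 each; log2 0.51, edgeR adjusted p = 0.00876).

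Of 15 genes known as rhythmic in many tissues or as clock-controlled in muscle, 3 rose and 5 fell (53.3% called, against 37.0% of all genes), with a median log2 fold change of -0.09. With library totals 6 were called higher and 3 lower, with a median of 0.38. The list shares members with those above, Usp2 among them. Tcap, the titin cap gene of the Z-disc, had 1112 ± 17.7 CPM in mKO and 2135 ± 80.9 CPM in WT muscle (SD, n = 3 each; log2 -0.94, edgeR adjusted p = 2.84e-05). Nampt, which makes the NAD precursor NMN, had 222 ± 13.2 CPM in mKO and 428 ± 50.1 CPM in WT muscle (SD, n = 3 each; log2 -0.95, edgeR adjusted p = 6.64e-05). The transferrin receptor gene Tfrc (log2 -0.95) and the mitochondrial carrier gene Ucp3 (log2 -0.97) fell as well, and Por, which encodes the electron donor of cytochrome P450 enzymes, rose (log2 0.94); their edgeR adjusted p was 0.000271, 0.00281 and 0.00026. Ucp3 was no longer called with library totals (edgeR adjusted p = 0.0622).

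The profile of Dbp over the 6 libraries was compared with those of 11955 other genes with a mean of at least 1 CPM, by the root mean square difference of centred log2(CPM + 0.5) values. The nearest were Zfp810 (0.066), Greb1l (0.067), Iigp1 (0.093), Osbpl5 (0.111) and Igfbp5 (0.116). Among the clock genes Per3 came nearest at rank 275 (0.207), then Tef at rank 581 (0.232) and Nr1d1 at rank 697 (0.238). For Arntl near genes were Eef1b2 (0.027), Nipa1 (0.031), Lama4 (0.032) and Tmem70 (0.035), and among the clock genes Nr1d2 at rank 1016 (0.124). None of these 9 genes passed the test, with edgeR adjusted p from 0.257 to 0.928. With 6 libraries and little difference between groups, such distances rest mostly on small deviations of single libraries.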

How the data were processed

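Gene expression was measured by RNA sequencing of gastrocnemius in 3 mKO and 3 WT libraries, grouped by their sample titles. The authors deposited raw counts per Ensembl gene, 1 table per library. STAR 2.5.2b, Trimmomatic 0.36, and Subread 1.5.2 with its featureCounts program are named, with build GRCm38, per the submitters' processing notes. Per the labels' protocols, RNA was taken from frozen muscle with Trizol and libraries came from the NEBNext Ultra RNA kit. Settings for strand, pairs and multimapping are not stated there, so counts of genes that overlap others or have close paralogs, such as Mt1 and Mt2, are uncertain.

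Symbols were assigned by gene identifier (48970 of 49315 genes). The main test was edgeR 4.0.16 (R 4.3.3), quasi-likelihood, with TMM factors, the default filter by group (16650 genes), group as the only term and Benjamini-Hochberg adjustment at 0.05. Intervals of fold changes are 95% intervals from the fitted standard error. CPM per kb used the exon length in the tables. The biological coefficient of variation was 16.1%. Libraries within each group were compared for duplicates, and every pair differed by far more than counting error (chi-square over its degrees of freedom, 20.9 to 57.7). The test was checked on simulated data.

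The 10 genes, the 5 pathway lists and the 8 marker lists were chosen with earlier results of these data known. Named are the 10 genes, up to 5 genes of each pathway list by lowest p, genes overlapping a clock gene, Hnrnpu, and the 5 genes nearest in profile to Dbp and to Arntl. Fkbp5, Errfi1, Klf15 and the cell type markers named were picked after their values were seen. Clock and Cry1 stand beside their partners and were named without regard to the rule. Some genes that the rule names are not reported here. Alternatives were DESeq2 1.42.0, limma-voom (limma 3.58.1), other scalings, filters and dispersion, a threshold of 0.01, the replicate number as a block and leaving out each library.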

Additional observations from a re-analysis of the deposited data

How the results depend on the processing

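The 4 clock genes called changed stayed called at 0.05 in every alternative fit run, leave-one-out fits included, and at 0.01 in the main fit. In the alternatives the edgeR adjusted p was above 0.01 for Cry2 without WT replicate 3 (0.0147). The same held for Hlf without WT replicate 3 (0.0108) and with library totals (0.0237). With library totals the count of called clock genes was 9, and that of all genes 9283 (8159 higher and 1124 lower), against 6166 (3022 higher and 3144 lower) with TMM factors. With a threshold of 0.01 the counts were 3973 for all genes, 5 for regulators of clock proteins (8 at 0.05) and 1 for other core clock genes (4 at 0.05). Leaving out 1 library gave 4766 to 6255 changed genes and 1 to 4 changed other core clock genes, with 1 without WT replicate 1 or mKO replicate 3 and 2 without mKO replicate 1. In fits that leave 1 group with 2 libraries, the spread is shared over all 5 remaining libraries.

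Among the genes named, cell type markers aside, directions that turned with library totals were those of Arntl (0.31), Nr1d2 (0.31), Cry1 (0.35), Btrc (0.00), Fbxo32 (0.02), Hnrnpu (0.27), Greb1l (0.40), Eef1b2 (0.31), Nipa1 (0.27), Lama4 (0.31) and Tmem70 (0.30), as log2 fold changes. All genes moved up by the construction of this scaling. Per3 turned to -0.04 with limma-voom, -0.02 without WT replicate 2 and -0.33 without mKO replicate 2. Clock turned to -0.08 without WT replicate 2 and -0.01 without mKO replicate 1, within a leave-one-out range up to 0.06. Nr1d1 turned to -0.03 without mKO replicate 2, and Dbp to -0.09 without WT replicate 2 and -0.14 without mKO replicate 2. Of the genes near Dbp in profile, Zfp810 turned to -0.15 without WT replicate 2, -0.11 without mKO replicate 2 and -0.02 without mKO replicate 3, Greb1l to 0.17 without WT replicate 1 and 0.13 without mKO replicate 1, Iigp1 to -0.06 without WT replicate 2 and -0.01 without mKO replicate 2, Osbpl5 to -0.03 without WT replicate 2 and Igfbp5 to -0.09 without mKO replicate 2. Among the 10 clock genes, all values that turned belonged to genes not called in the main test.

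The replicate numbers did not pair the libraries: deviations of same-numbered mKO and WT libraries correlated at -0.011, -0.019 and 0.043. With the replicate number as a block, 4 clock genes were called, Per3 turned to -0.03, and the number of changed genes was 5519. Leave-one-out log2 fold changes ranged up to 0.29 for Per3, 0.26 for Nr1d1, 0.24 for Dbp, 0.29 for Iigp1 and 0.34 for Igfbp5, and down to -0.27 for Greb1l. Of the 10 clock genes, Hlf and Per2 had the lowest counts; the phase of the clock at harvest is not known for any library.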

Other observations

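Per1 is also a target of the glucocorticoid receptor, and Per1 and Per2 respond to cAMP and calcium, so lists of both responses were examined. Of 14 glucocorticoid-responsive genes 5 rose and 3 fell (57.1% called, against 37.0% of all genes), with a median log2 fold change of 0.22. The metallothionein genes Mt2 (log2 3.19) and Mt1 (log2 1.75), which bind metals, and Cebpd (log2 0.91), a transcription factor gene, rose, with edgeR adjusted p of 3.04e-07, 0.0001 and 0.00178. Sgk1, a kinase gene, fell to 37.6 ± 2.5 CPM in mKO, against 104 ± 13.3 CPM in WT muscle (SD, n = 3 each; log2 -1.46, edgeR adjusted p = 3.25e-06), and the ubiquitin ligase gene Fbxo32 fell (log2 -0.44, edgeR adjusted p = 0.00475, but 0.02 with library totals). Fkbp5, a co-chaperone gene often used as a readout of the receptor and picked after its value was seen, fell (log2 -0.51, edgeR adjusted p = 0.0136, but -0.04 and 0.805 with library totals, and not called without WT replicate 3 or mKO replicate 2, with 0.0648 and 0.0594). Errfi1 (log2 0.66) and Klf15 (log2 0.62), also of this list and also picked after their values were seen, rose. Their edgeR adjusted p was 0.00759 and 0.0157. With library totals 8 genes of the list were called higher and 1, Sgk1, lower (64.3% called, against 55.8% of all genes).

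Of 12 early genes of cAMP and calcium signalling 4 rose and 2 fell (50% called, against 37.0% of all genes), with a median log2 fold change of 0.15. With library totals 6 were called higher and 1 lower (58.3% called, against 55.8% of all genes). Junb had 23, 23.4 and 23.3 CPM in mKO replicates 1 to 3, against 11.2, 6.19 and 8.64 CPM in WT replicates 1 to 3 (log2 1.42, edgeR adjusted p = 6.21e-05). Every mKO library was above every WT library. The nuclear receptor gene Nr4a3 (log2 1.40) and the kinase gene Sik1 (log2 0.81) rose, with edgeR adjusted p of 0.000299 and 0.00272. Fos rose (log2 1.6, edgeR adjusted p = 0.0121) but was not called by DESeq2 (adjusted p = 0.0793), with robust dispersion (0.133), without WT replicate 3 (0.0625) or without mKO replicate 3 (0.0526). Without WT replicate 1, the highest WT library for Fos, the log2 fold change was 2.57 (edgeR adjusted p = 3.96e-05). Pde4d, which breaks down cAMP, fell to 85.3 ± 6.61 CPM in mKO, against 179 ± 21.7 CPM in WT muscle (SD, n = 3 each; log2 -1.07, edgeR adjusted p = 2.95e-05).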
